A study of Mus musculus with 4 samples.

Results

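Molecular chaperones of the cytosol and of mitochondria were followed in oligodendrocytes, the glial cells that make myelin, from Zfp488 knockout and wild-type mice. The genes were taken by name from the table of 35869 gene rows: the HSP70 and HSP110, HSP90, HSP60 and HSP10, small heat shock protein, DnaJ, CCT and BAG families, with Cryab, and without the endoplasmic reticulum (ER) genes Hspa5, Dnajb9 and Dnajc3 and a pseudogene. The names gave 90 rows, of which 4 were left out, so that 86 genes formed the set. The libraries come from 2 groups of 2, all from cortex of mice at postnatal day 5, sorted for the surface lipids O4 and GalC: mice carrying a knock-in allele of Zfp488 on both chromosomes (Zfp488KI/KI), whose libraries are labelled knockout (KO), and wild-type controls (WT). Values are FPKM, fragments scaled by transcript length and by the mapped fragments of the library. The labels name no treatment and no strain, and neither they nor the study's design text say how the knock-in allele was built or how many animals gave a library. The p-values therefore measure the spread between these libraries only, which may be technical.

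Chaperones hold unfolded or newly made proteins and help them to fold. HSP70 proteins bind short stretches of an open chain in a cycle driven by ATP; DnaJ proteins (also called HSP40) bring them clients and start ATP hydrolysis, and the nucleotide exchange factors of the HSP110 and BAG families reset them. HSP90 acts later, on kinases and receptors that are nearly folded. The chaperonins are closed barrels: TRiC, built of CCT subunits, folds actin and tubulin in the cytosol, and HSP60 with its lid HSP10 folds proteins in mitochondria. Oligodendrocytes make large amounts of membrane and cytoskeletal protein when they form myelin, and the small heat shock protein encoded by Cryab is a known product of mature oligodendrocytes.

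The name rule also caught some genes whose products work elsewhere. Dnajb11, Dnajc1, Dnajc10, Dnajc25 and Hspa13 encode proteins of the ER. Hspb11 encodes a protein of intraflagellar transport and is a small heat shock protein by name only. These genes stayed in the set because the rule names them.

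In the whole table no gene differed between the genotypes after correction for multiple testing. Of 10754 genes with at least 1 FPKM in at least 2 libraries, limma called 0 at an adjusted p under 0.05, which is 0% (smallest adjusted p = 0.859), and 608 had an unadjusted p under 0.05, which is 5.65%. Zfp488 itself had 4.82 and 4.11 FPKM in KO and 6.61 and 5.29 FPKM in WT. Its log2 difference was -0.34 (SE 0.33; limma adjusted p = 0.95), so its transcript level checks the genotype labels only weakly. Summed FPKM lay between 311846 and 341145 per library. Among genes of low FPKM, with equal values left out, the commonest ratio to WT 1 was 0.927 in KO 1, 0.953 in KO 2 and 0.853 in WT 2. This ratio gives the relative FPKM worth of 1 read only if the commonest low genes had equal read counts in both libraries. The lineage genes Olig1, Olig2, Sox10 and Cnp were detected in every library. Both KO libraries were below both WT libraries for 6 of 8 tested genes of myelinating oligodendrocytes and above for 4 of 6 precursor genes. Over all tested genes 18.3% were below and 16.6% above. For 8 genes of endothelium and pericytes the summed level was 7.38 and 66.1 FPKM in KO 1 and KO 2 and 0.454 and 73.9 FPKM in WT 1 and WT 2, with Pecam1 at or near 0 throughout. For 8 microglial genes it was 49.6 and 123.4 FPKM in KO and 51.3 and 110.7 FPKM in WT. Libraries numbered 2 thus held more of both than libraries numbered 1, in both genotypes. Summed levels of 8 astrocyte genes were 116.6 and 258.1 FPKM in KO and 91.6 and 170.5 FPKM in WT, and those of 9 neuronal genes 23.9 and 40.3 FPKM in KO and 15.8 and 31.9 FPKM in WT. In bulk RNA, fewer cells of a type and less RNA per cell cannot be told apart.

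As a set, the chaperones had close summed levels in both genotypes. Together they held 3746 and 3717 FPKM in KO and 3910 and 3826 FPKM in WT, or 1.20% and 1.16% of all FPKM in KO and 1.16% and 1.12% in WT. Of the 86 genes 67 passed the filter on low values. The other 19 did not exceed 1.80 FPKM in any library, and 4 of them were listed at 0 in all of them. Among the tested genes 33 had a negative and 34 a positive log2 fold change of KO over WT, with a median of 0.0063, beside a median of 8.1e-05 over all tested genes. None of the chaperones was called (smallest adjusted p = 0.859, limma). Of the 67 tested, 6 had an unadjusted limma p under 0.05, beside 5.65% of all tested genes.

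Both KO libraries lay above both WT libraries for 8 of the 67 tested chaperones and below for 15. Over all tested genes the shares were 16.6% above and 18.3% below, beside 11.9% and 22.4% for the chaperones, so neither share stood far from the background. With the libraries rescaled to TPM the counts were 11 above and 12 below, beside 2335 and 1408 among all tested genes instead of 1780 and 1969. All 8 and 12 of the 15 genes were then on the same side as before. The median absolute difference between the libraries of a group was 0.26 (KO) and 0.33 (WT) on the log2 scale for chaperones. For all tested genes it was 0.37 (KO) and 0.40 (WT). Genes of low FPKM scatter most, and the chaperones were not matched in level to the other genes. Whether level accounts for the smaller values of the chaperones was not tested.

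**Figure D1:**
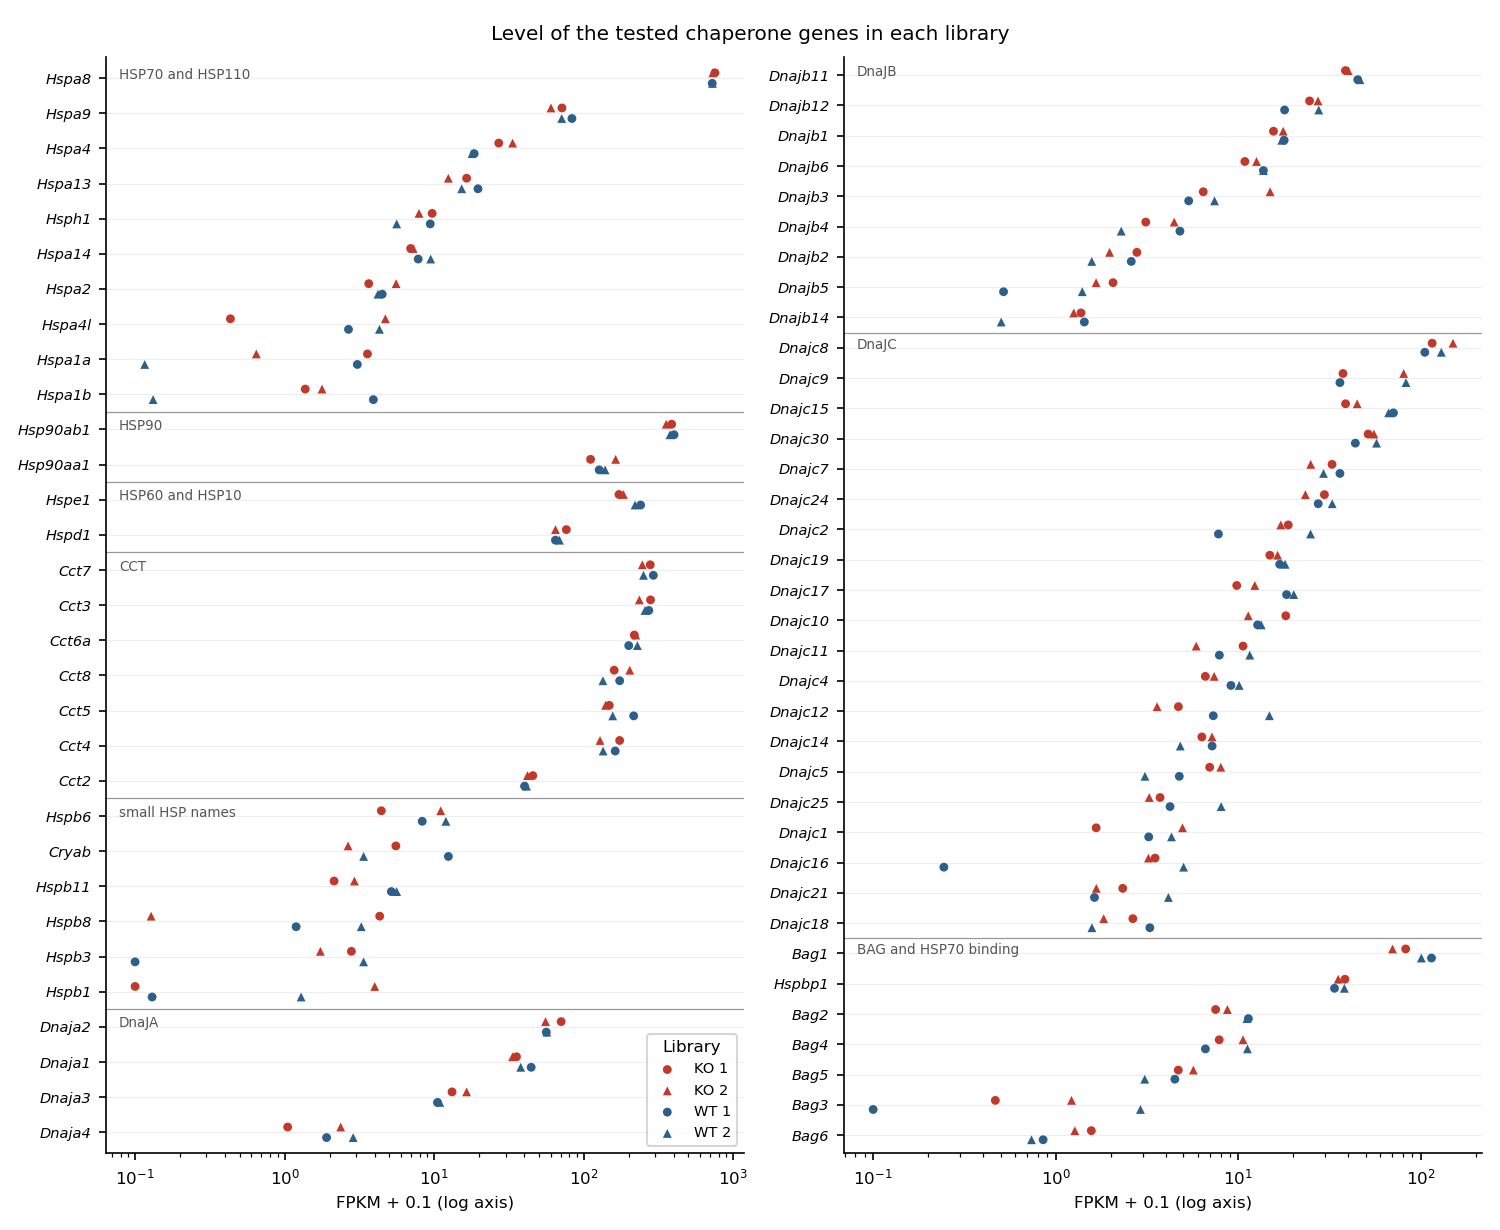
FPKM plus 0.1 on a log axis for the 67 tested chaperone genes by class, with KO libraries drawn above WT libraries in each row and library numbers shown by shape. Levels run from Hspa8, at 723.2 FPKM or more in every library, to genes such as Hspa1a and Hspb1 whose libraries scatter more widely than the genotypes differ.

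Within the HSP70 and HSP110 class, from which the rule leaves out the ER gene Hspa5, a single gene held most of the summed transcript level. Hspa8, which encodes the constitutive HSP70 of the cytosol (chromosome 9, 40800984 to 40810087, plus strand, GRCm38), was at 754 and 729.4 FPKM in KO and at 723.2 and 726.3 FPKM in WT. It was the highest of all members and held between 82.4% and 85.0% of the summed FPKM of its class in each library. KO libraries were above WT libraries by a narrow margin, with a log2 difference of 0.033 (SE 0.085, 95% interval -0.19 to 0.25). Of the 2 genes of the class closest in level, Hspa9 encodes the HSP70 of mitochondria and Hspa4 a nucleotide exchange factor of the HSP110 kind.

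Hspa9 had 71.4 and 60.3 FPKM in KO and 83.3 and 71.2 FPKM in WT. Its groups overlapped narrowly, and the log2 difference was -0.23 (SE 0.20). Hspa4 (chromosome 11, 53259814 to 53300457, minus strand) was at 26.9 and 33.4 FPKM in KO, against 18.4 and 17.8 FPKM in WT. Every KO library was above every WT library, by 0.70 on the log2 scale (SE 0.24, 95% interval 0.075 to 1.32; unadjusted p = 0.0345, limma adjusted p = 0.859). Its relatives did not share this separation. Hsph1, the HSP110 induced by heat, was at 9.59 and 7.82 FPKM in KO and 9.32 and 5.52 FPKM in WT, and Hspa4l, another HSP110 gene, at 0.334 and 4.62 FPKM in KO and 2.57 and 4.21 FPKM in WT.

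The heat-inducible HSP70 genes were low. Hspa1a was at 3.48 and 0.547 FPKM in KO and 2.96 and 0.016 FPKM in WT, and its neighbour Hspa1b at 1.27 and 1.68 FPKM in KO and 3.82 and 0.032 FPKM in WT. For both genes WT 2 was near 0 while WT 1 was the highest or second highest, so the libraries of the WT group differed more than the genotypes. The products of Hspa1a and Hspa1b are nearly identical, and reads that fit both could be split in ways that no source states. A value near 0 in a single library may also be a failed estimate in tables of this kind. Among the rest, Hspa2, an HSP70 best known from testis, was at 3.55 and 5.47 FPKM in KO and 4.39 and 4.11 FPKM in WT. Hspa14, an HSP70 that works at the ribosome, was lower in both KO libraries, at 6.86 and 7.14 FPKM, against 7.72 and 9.38 FPKM in WT. Hspa12a did not exceed 0.020 FPKM in any library.

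HSP90 was abundant and level. The constitutive Hsp90ab1 had 387.4 and 356.1 FPKM in KO and 401.8 and 377.4 FPKM in WT (log2 difference -0.068, SE 0.11, 95% interval -0.36 to 0.22). The stress-inducible Hsp90aa1 had 111.1 and 163.4 FPKM in KO and 126.8 and 138.9 FPKM in WT (log2 difference 0.022, SE 0.23). For this gene KO 1 was the lowest and KO 2 the highest library, and Hsp90ab1 exceeded it by a ratio of 3.49 and 2.18 in KO and 3.17 and 2.72 in WT. The sign of either gene depended on the scaling: it turned with TPM for Hsp90ab1 and with median centring for Hsp90aa1.

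In mitochondria, the lid of the chaperonin was lower in KO while the barrel was not. Hspe1, which encodes HSP10, was at 172.1 and 184.2 FPKM in KO and at 240.1 and 220.4 FPKM in WT. Every KO library was below every WT library, with a log2 difference of -0.37 (SE 0.13, 95% interval -0.71 to -0.028; unadjusted p = 0.0389, limma adjusted p = 0.865). Hspd1, which encodes HSP60, was at 76.5 and 64.7 FPKM in KO and 64.6 and 68.8 FPKM in WT, with groups that overlapped (0.076, SE 0.19). The ratio of Hspe1 to Hspd1 was 2.25 and 2.85 in KO, against 3.72 and 3.21 in WT. The longest Hspe1 transcript has 964 bp and that of Hspd1 2423 bp, and with the trend of fold changes on length and level removed Hspe1 differed by -0.091.

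The 2 genes stand head to head on chromosome 1, so the stretch around their starts is common to both. GENCODE places Hspd1 from 55077835 to 55088243 on the minus strand and Hspe1 from 55088132 to 55091307 on the plus strand. With these places their annotated exons overlap by 112 bp on opposite strands, where reads cannot be told apart unless strand was used in counting. The shared stretch carries the heat shock element, the site bound by heat shock factors, and is shown because the genes it serves differed in how their levels compared between genotypes. The element was searched as GAANNTTCNNGAA on both strands in RefSeq promoters (GRCm38.p6, 250 bases before to 50 after each start), where it stood in 0.603% of 32851 promoters and for 0.662% of 27025 genes. Of the 69 chaperones with a promoter in that table it was found for 4 (5.8%): Hspd1, Hspe1, Dnajb6 and, after the start, Hsph1. Members with no promoter there, such as Hspa8, Hspa9, Hsp90aa1, Hsp90ab1 and Cryab, could not be searched. The search allowed no mismatch. A gene without a match, such as Hspa1a, Hspa1b or Dnajb1, may therefore hold a looser form of the element. The windows of 30 bases below are given 5′ to 3′ on the strand of each gene, with the bases covered by matches in capitals. For Hspe1 and Hspd1 they are the same bases of chr1:55088053-55088082, read from opposite strands, with 2 overlapping matches; the window of Dnajb6 is chr5:29735844-29735873, plus strand.
Hspe1: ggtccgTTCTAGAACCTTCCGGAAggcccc
Hspd1: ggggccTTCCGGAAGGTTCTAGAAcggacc
Dnajb6: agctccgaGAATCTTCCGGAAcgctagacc
The matched bases begin 89 bases before the RefSeq start of Hspe1 and 144 bases before that of Hspd1. With the GENCODE places given above they lie before Hspe1 but inside Hspd1. The exon overlap and the distance to Hspd1 thus rest on different annotated starts and do not hold together. The 4 genes with a match did not move as a group: log2 differences were -0.37 for Hspe1, 0.076 for Hspd1, -0.22 for Dnajb6 and 0.24 for Hsph1. Of all 49 tested genes with a match, 5 were above and 8 below in both KO libraries, with a median of 0.071. Over all tested genes 16.6% were above and 18.3% below. A match describes letters only and does not show that a factor is bound.

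**Figure D2:**
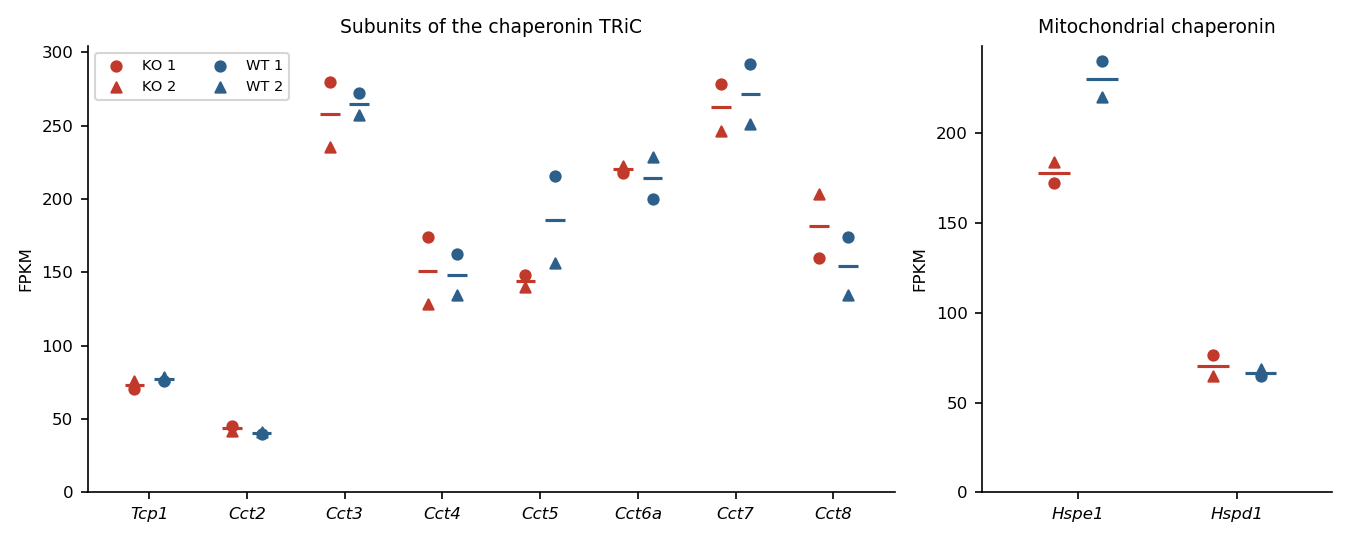
FPKM of the 8 subunits of TRiC and of both mitochondrial chaperonin genes, with 1 point per library (KO left of WT) and short bars for group means. Hspe1 shows both KO libraries below both WT libraries, and so does Cct5; both KO libraries of Cct2 lie slightly above both WT libraries, and the other TRiC subunits overlap.

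TRiC needs each of its 8 subunits once per ring, yet their transcripts differed in level. Summed over Tcp1 and Cct2 to Cct8 the level was 1374 and 1294 FPKM in KO and 1432 and 1281 FPKM in WT. The highest subunit exceeded the lowest by a ratio of 6.14 and 5.87 in KO and 7.28 and 6.21 in WT, and the coefficient of variation over subunits was between 47.5% and 50.2% in all 4 libraries. In every library Cct3 or Cct7 was the highest and Cct2 the lowest.

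Cct7 was at 278.5 and 246.5 FPKM in KO and 292 and 251 FPKM in WT. Cct3 was at 279.7 and 235.5 FPKM in KO and 272.5 and 256.9 FPKM in WT. Cct6a followed with 217.8 and 222.7 FPKM in KO and 199.9 and 228.3 FPKM in WT. These subunits overlapped between genotypes, and the signs of Cct3 and Cct7 turned with TPM, as they lay close to 0. In the middle, Cct8 had 159.8 and 203.1 FPKM in KO and 173.9 and 134.3 FPKM in WT, and Cct4 had 173.8 and 128.4 FPKM in KO and 162.3 and 134.7 FPKM in WT. Cct5 was the subunit with the largest difference, at 148.1 and 140 FPKM in KO and 215.7 and 156.2 FPKM in WT (log2 difference -0.35, SE 0.20). WT 1 stood apart for this gene, and without it the difference was -0.12. Cct2 had 45.6 and 42.0 FPKM in KO and 40.1 and 41.4 FPKM in WT, with both KO libraries above by a small margin (0.10, SE 0.19). Of the testis-enriched copies, Cct6b did not exceed 0.271 FPKM and Cct8l1 was listed at 0 in every library.

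Small heat shock proteins were low and scattered. Cryab, which encodes alpha-B crystallin, was at 5.45 and 2.56 FPKM in KO and 12.3 and 3.28 FPKM in WT. It was highest in WT 1, the library with the highest summed level of myelinating genes (489 and 231.1 FPKM in KO, 754.9 and 473.2 FPKM in WT), whose part in the Cryab values was not tested. Hspb1, which encodes HSP27, was at 0 and 3.90 FPKM in KO and 0.030 and 1.19 FPKM in WT. Its higher libraries were those numbered 2 in both genotypes, as for the vascular and microglial genes, whose part was not tested. Hspb6 was at 4.33 and 11.0 FPKM in KO and 8.22 and 11.9 FPKM in WT, and Hspb8 at 4.22 and 0.028 FPKM in KO and 1.09 and 3.15 FPKM in WT. These 4 genes overlapped between genotypes. Hspb11, the transport gene, did not: it had 2.04 and 2.83 FPKM in KO, against 5.07 and 5.51 FPKM in WT (log2 difference -0.88, SE 0.34; unadjusted p = 0.0501, limma adjusted p = 0.881). The muscle gene Hspb7 was listed at 0 in every library.

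The DnaJ proteins, 43 genes in all of which 33 were tested, held the largest differences in either direction. Of the class A genes, Dnaja1, a main partner of cytosolic HSP70, was at 35.4 and 33.4 FPKM in KO and 44.4 and 37.8 FPKM in WT, with both KO libraries lower (-0.25, SE 0.21). Dnaja2 overlapped, at 70.6 and 55.5 FPKM in KO and 56.1 and 56.5 FPKM in WT. Dnaja3, which encodes a partner of mitochondrial HSP70, was higher in both KO libraries, at 13.1 and 16.4 FPKM, against 10.4 and 10.8 FPKM in WT (0.43, SE 0.28). Dnaja4 overlapped, at 0.948 and 2.27 FPKM in KO and 1.81 and 2.77 FPKM in WT.

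In class B, Dnajb1, the heat-inducible HSP40, was nearly level at 15.5 and 17.5 FPKM in KO and 17.8 and 17.2 FPKM in WT. Dnajb6, a suppressor of protein aggregation, was slightly lower in both KO libraries, at 10.8 and 12.5 FPKM, against 13.6 and 13.6 FPKM in WT (-0.22, SE 0.26). The ER gene Dnajb11, the highest of the class, was at 38.6 and 39.9 FPKM in KO and 45.1 and 46.3 FPKM in WT. Dnajb5 was higher in both KO libraries, at 1.96 and 1.57 FPKM, against 0.418 and 1.298 FPKM in WT (0.61, SE 0.42), but the difference was 0.26 without WT 1. Dnajb1 overlapped between groups and the other 3 genes did not, but none passed the test. Dnajb13, a gene of motile cilia and sperm, did not exceed 0.0080 FPKM.

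Class C holds DnaJ proteins with special tasks. Of its 20 tested genes 6 were lower (30.0%) and 1 was higher (5.0%) in both KO libraries, beside 18.3% and 16.6% of all tested genes. The median log2 difference was -0.17, but it was -0.016 without KO 2 and -0.44 without WT 1. Dnajc15, which encodes an inner membrane protein of mitochondria related to a subunit of the protein import motor (chromosome 14, 77820681 to 77875125, minus strand), was at 38.6 and 44.7 FPKM in KO, against 70.7 and 66.6 FPKM in WT. The groups stood well apart, and its unadjusted p was the smallest of the set (log2 difference -0.71, SE 0.19, 95% interval -1.2 to -0.21; unadjusted p = 0.0142, limma adjusted p = 0.859). Its relative Dnajc19, the import motor subunit, had 14.8 and 16.3 FPKM in KO and 16.8 and 17.96 FPKM in WT, lower in KO by a smaller margin (-0.15, SE 0.25).

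Dnajc17, a nuclear DnaJ protein with an RNA-binding domain, was at 9.71 and 12.2 FPKM in KO and 18.3 and 20.0 FPKM in WT (-0.76, SE 0.27; unadjusted p = 0.0375, limma adjusted p = 0.862). Dnajc12, a partner of the hydroxylases of aromatic amino acids, showed the largest difference of the set, at 4.601 and 3.49 FPKM in KO and 7.20 and 14.7 FPKM in WT (-1.18, SE 0.43; unadjusted p = 0.0413, limma adjusted p = 0.87). That size rested on WT 2, without which the difference was -0.71. Dnajc25, at the ER, was at 3.63 and 3.15 FPKM in KO and 4.13 and 7.96 FPKM in WT (-0.63, SE 0.41), with a difference of -0.23 without WT 2. The sole class C gene with higher values in both KO libraries was Dnajc5, which encodes the cysteine string protein of secretory vesicles: 6.88 and 7.93 FPKM in KO, against 4.66 and 2.98 FPKM in WT (0.82, SE 0.35; limma adjusted p = 0.885). Dnajc8, a splicing-related DnaJ protein and the highest of the class, overlapped at 115.3 and 150.1 FPKM in KO and 105.2 and 129.5 FPKM in WT.

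Dnajc9, a DnaJ protein that handles histones, showed another pattern. It was at 37.4 and 80.5 FPKM in KO 1 and KO 2, and at 36.0 and 82.9 FPKM in WT 1 and WT 2. The genotypes were alike in mean (log2 difference 0.0063, SE 0.54), while the libraries of each group differed by 1.09 in KO and 1.18 in WT on the log2 scale, both times with library 2 higher. Between the libraries of a group 8 chaperones in KO and 9 in WT differed by more than 1, beside 13.9% and 17.5% of all tested genes, and Dnajc9 is the one above 30 FPKM among them. It was named after its values were seen. Dnajc5b, a relative of Dnajc5, was listed at 0 in every library.

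**Figure D3:**
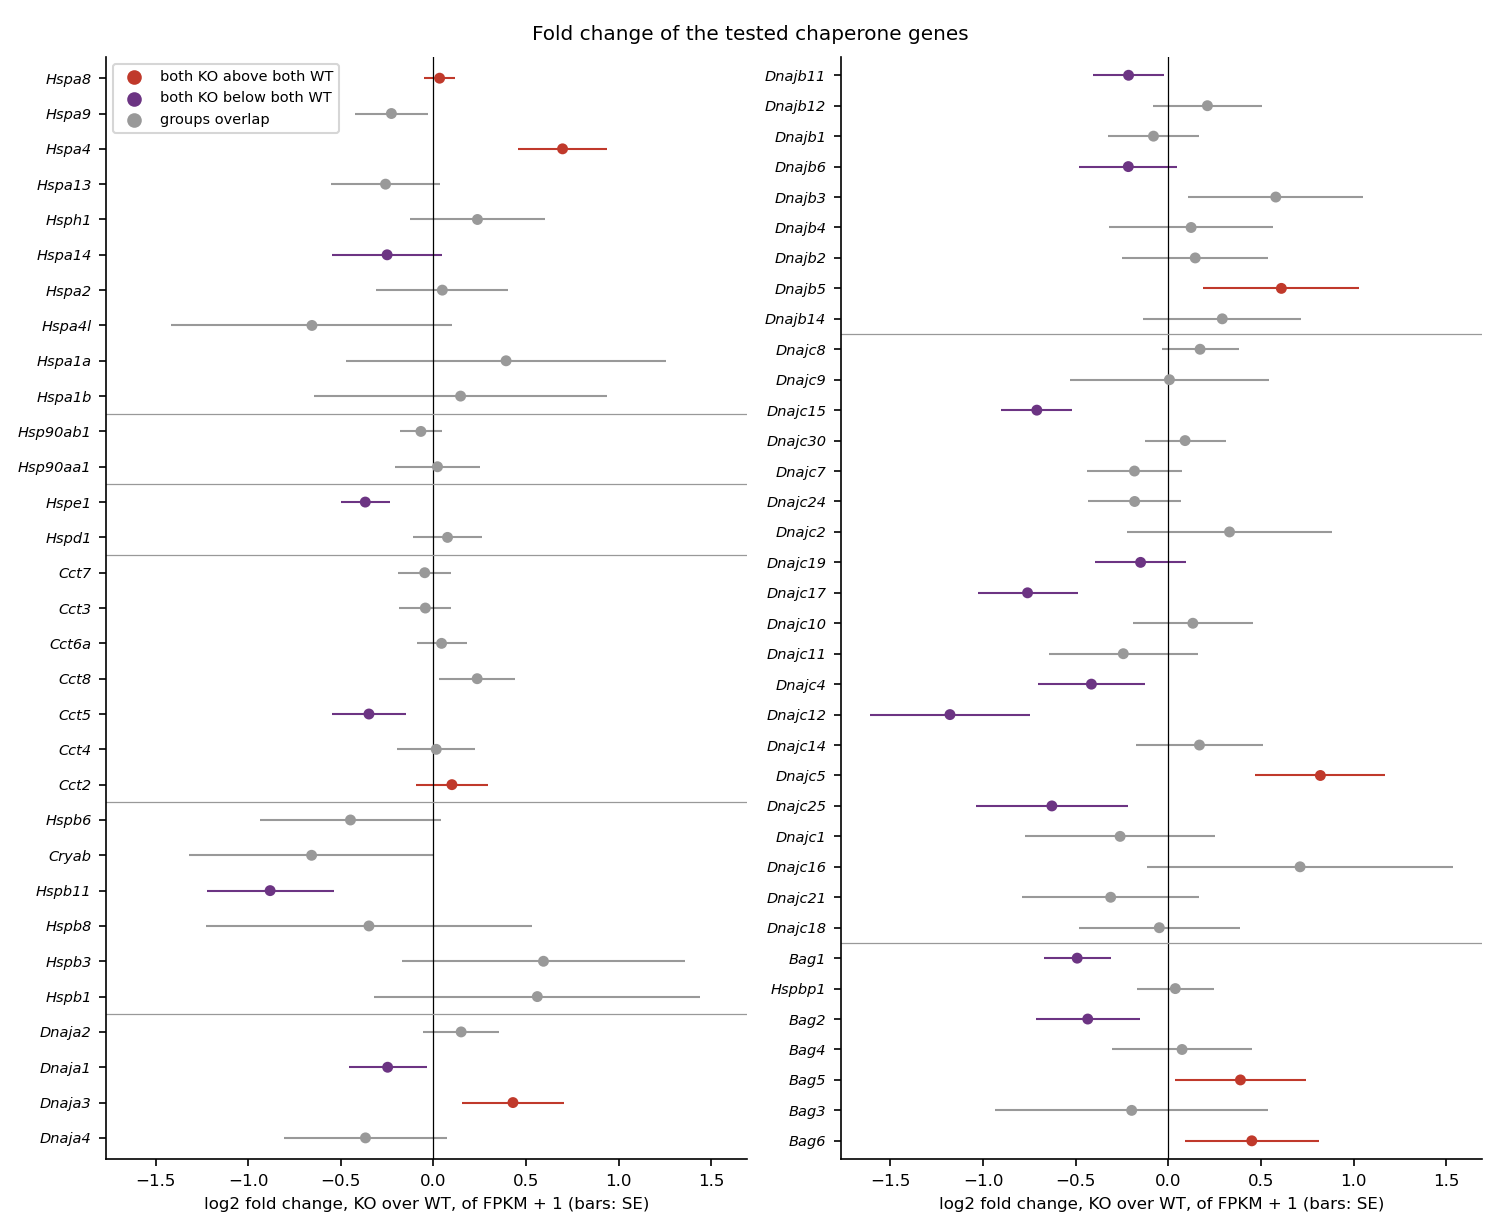
Log2 fold change of KO over WT for the 67 tested chaperone genes, with bars of 1 SE and colour for the order of the libraries. Hspa4 and Dnajc5 lie farthest to the right among genes with both KO libraries above, and Dnajc12, Hspb11, Dnajc17 and Dnajc15 farthest to the left; most intervals near the middle cross 0.

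Among the BAG genes, a family with factors that reset HSP70, the most abundant was lower in KO. Bag1 (chromosome 4, 40936398 to 40948294, minus strand) was at 82.6 and 70.0 FPKM in KO and 114.4 and 100.6 FPKM in WT. All KO values lay below all WT values, with a log2 difference of -0.49 (SE 0.18, 95% interval -0.96 to -0.025; unadjusted p = 0.0423, limma adjusted p = 0.87). Relative to Hspa8, Bag1 stood at a ratio of 0.110 and 0.0959 in KO and 0.158 and 0.139 in WT, while Hspa4, the exchange factor with higher values in KO, stood at 0.0357 and 0.0457 in KO and 0.0255 and 0.0245 in WT. Bag2, an inhibitor of the ubiquitin ligase CHIP, was also lower in KO, at 7.42 and 8.62 FPKM, against 11.3 and 11.1 FPKM in WT. Bag5 had 4.595 and 5.58 FPKM in KO and 4.40 and 2.98 FPKM in WT (0.39, SE 0.35; 0.17 without WT 2), and Bag6, which guards membrane proteins on their way to the ER, had 1.47 and 1.17 FPKM in KO and 0.753 and 0.637 FPKM in WT. These last 2 were higher in both KO libraries. Bag3, the partner of Hspb8 in autophagy, was at 0.367 and 1.12 FPKM in KO and 0 and 2.81 FPKM in WT, and its sign turned with the pseudocount. The class also holds Hspbp1, an HSP70-binding gene outside the BAG family, at 38.3 and 35.2 FPKM in KO and 33.6 and 38.0 FPKM in WT. So 2 of 7 genes of the class were above (28.6%), 2 below (28.6%) and 3 overlapped, Hspbp1 among these. Over all tested genes 16.6% were above and 18.3% below.

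Fold changes of chaperones ran with transcript length as those of all genes did. Among the 21 tested chaperones with a longest transcript of up to 2177 bp, 8 were below and 2 above in both KO libraries, with a median log2 difference of -0.25, beside -0.12 and shares of 27.5% below and 9.7% above for all 3361 tested genes of that length. The 21 chaperones of 3718 bp or more had 3 below and 4 above and a median of 0.12, beside 0.11 and shares of 11.5% below and 22.9% above for all 3359 tested genes of that length. Across the 67 chaperones Pearson's correlation of the log2 fold change with log2 length was 0.15, and 0.14 across 10080 tested genes with a length; these genes share the same 4 libraries. Of the genes in the foreground, the longest annotated transcript is short for Dnajc17 (1008 bp), Bag1 (1348 bp), Hspe1 (964 bp) and Hspb11 (1502 bp). It is long for Dnajc15 (6193 bp), Dnajc5 (6578 bp) and Hspa4 (4618 bp). The longest transcript need not be the one behind the FPKM of a gene. For a gene measured through a shorter one, the trend removed below would be the wrong one. With the trends on level and length removed, Dnajc15 differed by -0.67, Hspa4 by 0.63, Dnajc17 by -0.65, Dnajc5 by 0.75 and Dnajc12 by -1.25, which is within 1.5 times of the values above. Bag1 then differed by -0.29 and Hspe1 by -0.091. Whether length, level or the share of myelinating cells accounts for any of these differences was not tested.

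**Figure D4:**
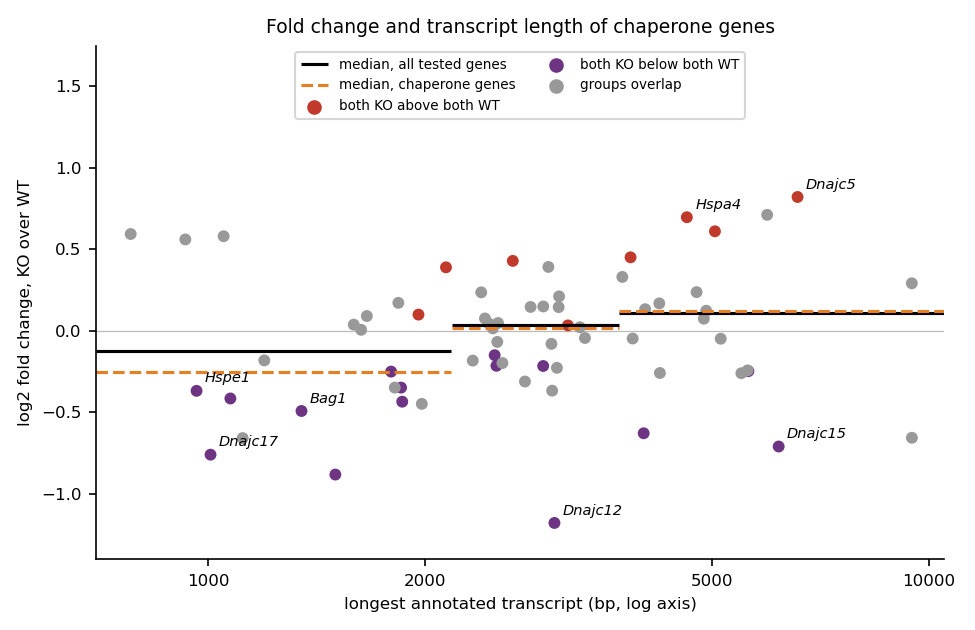
Log2 fold change of KO over WT against the longest annotated transcript (log axis) for the 67 tested chaperone genes, with the medians of all tested genes and of chaperones in 3 length ranges as lines. Both medians go from below 0 for short to above 0 for long transcripts. Dnajc15 lies low at a long annotated transcript, which need not be the one behind its FPKM.

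Partners of these chaperones outside the name rule passed the test in no case either. Over all tested genes 16.6% were above and 18.3% below in both KO libraries, and the lists that follow are small. Of 18 tested HSP90 partners 1 was above (5.56%) and 3 below (16.7%) in both KO libraries (median -0.062). Cdc37, which brings kinases to HSP90, was at 38.3 and 36.9 FPKM in KO and 52.7 and 43.2 FPKM in WT, and Ahsa2, an activator of HSP90, at 6.003 and 5.54 FPKM in KO and 6.90 and 8.47 FPKM in WT. Rpap3, an adaptor in the assembly of RNA polymerase, was at 12.5 and 23.7 FPKM in KO and 10.8 and 11.98 FPKM in WT (0.56, SE 0.37), and differed by 0.13 without KO 2. Of 7 tested HSP70 partners 0 were above and 1 was below. Their median was 0.015, but it ran from -0.062 to -0.0031 with 1 library left out. The gene below was Stub1, the ubiquitin ligase CHIP, at 154.9 and 159.1 FPKM in KO and 196.4 and 173.2 FPKM in WT. A further list of 13 genes held prefoldin subunits, related genes and cofactors and, of TRiC, Tcp1 alone, as the other subunits belong to the set above. In this list 0 were above and 3 below (23.1%), with a median of -0.094. The genes below were the prefoldin subunit Pfdn1 (77.8 and 94.8 FPKM in KO, 122.2 and 102.2 FPKM in WT), Pdcl3 and the tubulin folding cofactor Tbcb.

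Other mitochondrial folding and protease genes had 4 of 14 below (28.6%) and 1 above (7.14%), with a median of -0.10. That median turned positive, at 0.099, only with a mean of at least 5 FPKM, and without WT 2 it was -0.0081. Clpp, a matrix protease, was at 95.1 and 109.4 FPKM in KO and 124.4 and 162.8 FPKM in WT, and Hscb, a DnaJ protein of iron-sulfur cluster assembly, at 1.52 and 1.94 FPKM in KO and 7.997 and 2.20 FPKM in WT (-0.98, SE 0.58), with a difference of -0.23 without WT 1. Htra2, a protease of the space between the membranes, went the other way, at 50.5 and 58.1 FPKM in KO and 28.4 and 40.9 FPKM in WT (0.65, SE 0.26; limma adjusted p = 0.885). The members of the name rule counted as mitochondrial had 3 of 7 below (42.9%) and 1 above (14.3%), beside 18.3% and 16.6% of all tested genes. They were Hspa9, Hspd1, Hspe1, Dnaja3, Dnajc11, Dnajc15 and Dnajc19. Dnajc30, whose groups overlapped (log2 difference 0.091), was not counted, and the shares depend on this choice. With so few genes no conclusion is drawn from these shares.

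Heat shock regulators gave no separate order. Hsf1, the factor that turns on heat shock genes, was at 5.73 and 6.61 FPKM in KO and 6.496 and 6.88 FPKM in WT, and of 8 tested genes on this list only the ubiquitin gene Ubb was below in both KO libraries (932.6 and 1063 FPKM in KO, 1109 and 1105 FPKM in WT), with a sign that turned after quantile normalization. Among 18 tested ER chaperones and ER stress genes 4 were above (22.2%) and 6 below (33.3%), beside 16.6% and 18.3% of all tested genes. Their median was 0.035, and -0.10 without KO 1. The disulfide isomerase gene Pdia4 (61.9 and 64.6 FPKM in KO, 52.9 and 42.8 FPKM in WT) and Canx, which encodes calnexin, were above, and Herpud1, an ER degradation gene, was below. Of 16 tested immediate early genes, which respond within minutes to handling, 1 was above and 0 below. The gene above was Ier5, at 7.15 and 6.32 FPKM in KO and 0 and 5.31 FPKM in WT, with a difference of 0.29 without WT 1. The summed level of the list was 140.5 and 469 FPKM in KO and 156.2 and 354.5 FPKM in WT, so libraries of a group differed more than the genotypes. Whether handling affected the heat-inducible chaperones was not tested.

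**Figure D5:**
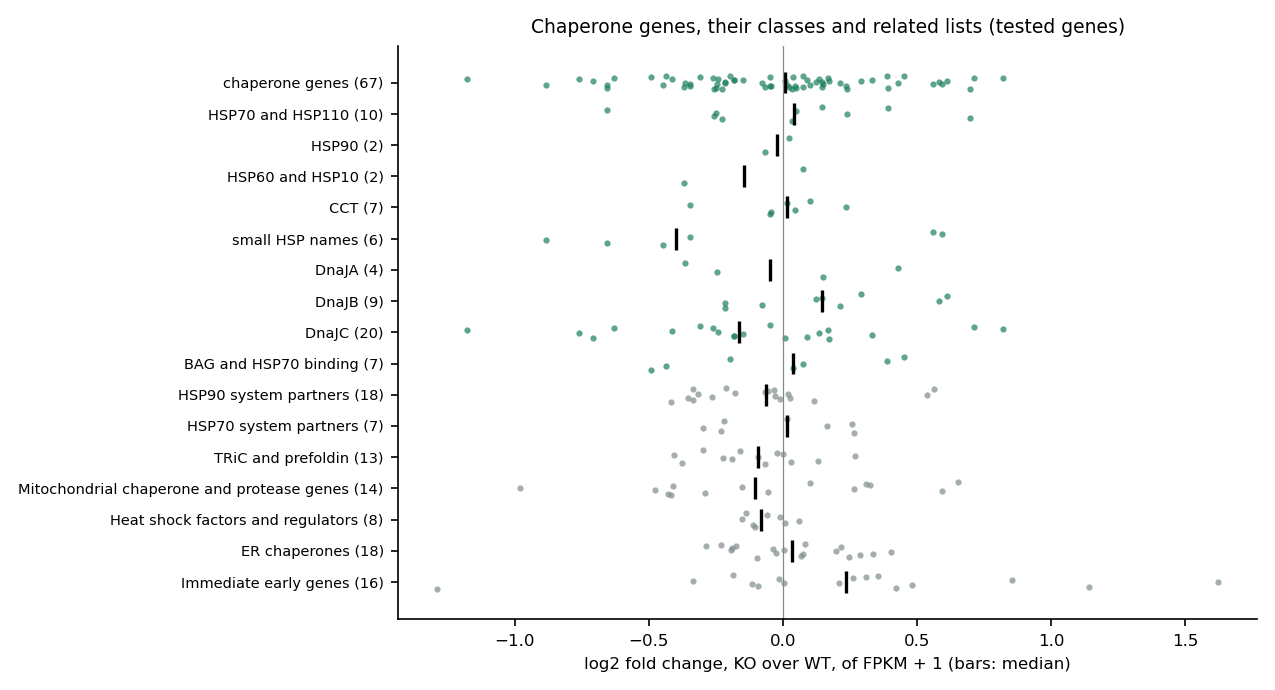
Log2 fold change of KO over WT for tested genes of the chaperone set, its 9 classes and 7 related lists, with 1 point per gene and the median as a bar; the number of genes stands in brackets. All medians except those of the small heat shock protein names and the immediate early genes lie within 0.2 of 0.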

How the data were processed

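RNA was measured in 4 libraries of sorted mouse oligodendrocytes, 2 KO and 2 WT. The authors deposited FPKM with 3 decimals and a column for each library. The RNA was purified on RNeasy Micro columns, per the labels' protocols. TopHat and mm10 are named in the submitters' processing notes; no source used here gives the program, annotation or strand setting behind the FPKM. Total reads are not given either, so no counting interval is printed.

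Values were analysed as log2(FPKM + 1), which understates changes of low genes. Rows with at least 1 FPKM in at least 2 libraries were fitted together with limma 3.58.1 in R 4.3.3 (genotype, empirical Bayes with trend, Benjamini-Hochberg adjustment over all tested rows, threshold 0.05, two-sided). SE and 95% intervals come from this fit. The code was tested on simulated data. Members, lists and the rule for named genes (a core of each class, then up to 4 genes per class and direction with non-overlapping groups and the largest difference, the highest and lowest gene of each class, and up to 3 genes per related list) were chosen with earlier results of these data known. They get no test of their own. Lengths and places are from GENCODE M21 (GRCm38), promoters from RefSeq GRCm38.p6. A list gene with no row was left out (1 mitochondrial name). In all, 14 alternatives were computed.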

Additional observations from a re-analysis of the deposited data

How the results depend on the processing

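In each of the alternatives that kept all 4 libraries 0 chaperones were called. Over all tested genes the count was 0 as well, so it says nothing particular to chaperones. Depth is not known from FPKM, and genes near 1 FPKM scatter most. The count of genes at an unadjusted p under 0.05 was 608 as reported, 1123 with no filter, 331 with a mean of at least 5 FPKM, 1025 with a replicate block, and between 322 and 618 with 1 library left out. The replicate block gave 0 called genes; deviations of same-numbered libraries correlated at 0.29 over genes, and since there are only 2 pairs the numbers were not taken to pair the libraries. Chaperones above in both KO libraries numbered 5 with a mean of at least 5 FPKM (14.2% of all genes), 14 with the level and length trend removed (15.6% of all genes), and 16 to 22 with 1 library left out (30.5% to 35.5% of all genes), when fewer values need to be ordered. Those below numbered 23 to 29 with 1 library left out, beside 32.7% to 36.6% of all genes. The median over chaperones was -0.046 with a mean of at least 5 FPKM, 0.11 with TPM (0.095 for all genes), 0.062 with quantile normalization, and between -0.086 and -0.0073 with 1 library left out.

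Among single genes the sign turned as follows (log2 difference, KO over WT); the cause was not tested. With a pseudocount of 0.1 Bag3 was at 0.48. With TPM Hsp90ab1 was at 0.032, Dnajb1 at 0.015, Bag3 at 0.041, Cct3 at 0.056 and Cct7 at 0.052. With quantile normalization Hsp90ab1 was at 0.10, Hspa2 at -0.0022, Cct3 at 0.14, Cct7 at 0.14 and Ubb at 0.0046. With median centring Hsp90aa1 was at -0.0019 and Cct4 at -0.0088. With the level and length trend removed Hsp90ab1 was at 0.094, Hspa2 at -0.018, Cct3 at 0.051, Cct7 at 0.025 and Ubb at 0.12. With 1 library left out, values ran from -0.25 to 0.30 for Hsp90aa1, -0.59 to 1.37 for Hspa1a, -0.97 to 1.26 for Hspa1b, -0.21 to 0.30 for Hspa2, -1.69 to 0.38 for Hspa4l, -0.094 to 0.57 for Hsph1 and -0.043 to 0.20 for Hspd1. They ran from -0.59 to 1.71 for Hspb1, -1.48 to 0.16 for Cryab, -1.03 to 0.13 for Hspb6, -0.16 to 0.0042 for Dnajb1, -1.16 to 0.77 for Bag3, -0.022 to 0.32 for Dnaja2, -0.74 to 0.0069 for Dnaja4 and -0.017 to 0.36 for Dnajc8. For TRiC they ran from -0.17 to 0.080 for Cct3, -0.20 to 0.23 for Cct4, -0.052 to 0.14 for Cct6a and -0.16 to 0.061 for Cct7. Of 58 named tested genes 37 kept their sign in every alternative that gave them a value, Hspa4, Hspe1, Dnajc15, Dnajc17, Dnajc12 and Bag1 among them. The groups of these listed genes do not overlap. For such genes leaving out 1 library, or changing the pseudocount, filter, trend or replicate block, cannot turn the sign. Only TPM, quantile normalization, median centring and the removal of the level and length trend could have turned it.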

Other observations

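The 4 rows that the name rule left out were measured in the same libraries. Hspa5, the HSP70 of the ER, was at 237.6 and 231.1 FPKM in KO and 250.4 and 251.3 FPKM in WT, and its log2 difference was -0.098 (SE 0.12). Dnajb9 had 18.3 and 9.37 FPKM in KO and 9.47 and 16.5 FPKM in WT, and Dnajc3 had 17.4 and 21.4 FPKM in KO and 13.8 and 17.8 FPKM in WT. The pseudogene Dnajc19-ps was listed at 5.61 and 5.09 FPKM in KO and 5.35 and 4.89 FPKM in WT. Each of these differed by less than 0.3 on the log2 scale.

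Some chaperone genes share exon sequence with a gene on the opposite strand, where reads of the partners cannot be told apart unless strand was used in counting. Dnajc7, an adaptor between HSP70 and HSP90, overlaps the myelin gene Cnp over 154 bp (3.17% of its exon bases) and was at 32.6 and 24.9 FPKM in KO and 36.0 and 29.2 FPKM in WT. Dnaja4 overlaps Wdr61 over 44.1% of its exon bases, and Dnajc30 overlaps Bud23 over 26.2%. Cct6a overlaps Psph over 12.5%, Hspa1a overlaps the gene model Gm20481 over 19.0%, Dnajc17 overlaps Zfyve19 over 8.26% and Dnaja1 overlaps Smu1 over 7.05%.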
